A study of Mus musculus with 32 samples.

Results

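Voltage-gated calcium channels were followed through 10 genes: 8 that encode a pore-forming alpha1 subunit (Cacna1a, Cacna1b, Cacna1c, Cacna1d, Cacna1e, Cacna1g, Cacna1h and Cacna1i) and 2 that encode an alpha2delta subunit (Cacna2d1 and Cacna2d3). They were taken by symbol from the gene count tables, where they are 10 of 24091 genes with a symbol. The rule uses symbols and no measured value, but the set was chosen with earlier results of these data known. All 10 passed the filter on low counts in every comparison below, with at least 103 counts in each library.

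Each channel is built around an alpha1 subunit, which holds the pore and the voltage sensor and sets the type of current. Cacna1c and Cacna1d encode L-type channels of the Cav1 family, which in neurons sit largely on soma and dendrites and couple activity to gene expression. Cacna1a, Cacna1b and Cacna1e encode the P/Q-, N- and R-type channels of the Cav2 family, the first and second of which trigger transmitter release at presynaptic terminals. Cacna1g, Cacna1h and Cacna1i encode T-type channels of the Cav3 family, which open near the resting potential and shape burst firing. Alpha2delta subunits are extracellular proteins that promote the delivery of channels to the membrane, and Cacna2d1 encodes one bound by gabapentin.

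The libraries were made by translating ribosome affinity purification (TRAP) from adult mice of 8 to 17 weeks. A bacTRAP mouse expresses an EGFP-tagged ribosomal protein L10a from a bacterial artificial chromosome under a driver gene, so that an immunoprecipitate (IP) is enriched for mRNA on ribosomes of the driver's cells, while input is RNA of the whole tissue piece. The Gprin3-bacTRAP ES152 line labels pyramidal cells of lower layer 5b and the Colgalt2-bacTRAP DU9 line those of upper layer 5b, per the labels. Each animal in the series therefore carries a bacTRAP transgene, the controls included. The baseline set held wild-type mice of either line, with primary motor cortex (M1) as the tissue: 2 IPs and 3 inputs of the Gprin3 line, and 2 IPs and 2 inputs of the Colgalt2 line. The second set crossed either line to mice with the SOD1*G93A transgene, a mutant human SOD1 used to model amyotrophic lateral sclerosis, and used littermates without it as wild type (WT). It held 2 WT and 3 SOD1*G93A IPs from M1 of the Gprin3 line, 3 WT and 4 SOD1*G93A IPs of the Colgalt2 line, and 5 WT and 6 SOD1*G93A M1 inputs, all inputs from the Gprin3 cross. The Colgalt2 IPs of this second set came from whole cortex by one label and from M1 by another, so line and tissue cannot be told apart there. No label states that replicates are separate animals, so p-values measure the spread between these libraries.

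Total counts ran from 10863628 to 77220890 per library, the lowest in Colgalt2 baseline IP 1. Colgalt2 stood at 79.4 to 97.1 CPM (a gene count scaled to its library total) in Colgalt2 baseline IPs and at 5.19 to 5.43 CPM in Gprin3 baseline IPs. The baseline inputs differed by line too, at 54.9 ± 2.92 CPM (SD, n = 2) in the Colgalt2 and 4.2 ± 0.675 CPM (n = 3) in the Gprin3 line. Within the Colgalt2 line, its log2 change of IP over input was 0.97 ± 0.24 (SE) and did not pass (edgeR, adjusted p = 0.0722). Gprin3 was higher in Gprin3 baseline IPs (38.9 to 49.7 CPM) than in their inputs (11.6 to 15.0 CPM), but did not separate the 2 lines in the WT IPs of the second set (30.4 ± 9.59 against 29.7 ± 6.85 CPM, SD, n = 2 and 3). Sod1 ranged from 690.8 to 732.6 CPM in SOD1*G93A Gprin3 IPs and from 319.6 to 322.6 CPM in the WT ones. Its level did not mark the genotype across sets, as the 2 wild-type Gprin3 baseline IPs held 469.8 and 800.6 CPM. In M1 inputs the genotypes overlapped, at 357.0 to 446.3 CPM with SOD1*G93A and 310.4 to 385.1 CPM in WT. The 13 layer 5b markers summed to between 1527 and 3144 CPM in IPs and to between 703.9 and 810.6 CPM in inputs. Libraries also differed in how many of their counts fell on long transcripts: genes with a longest annotated transcript of 7 kb or more took 14.1% to 15.5% of counts in Gprin3 baseline IPs, from 15.3% in SOD1*G93A Gprin3 IPs, 21.5% to 22.1% in WT Gprin3 IPs, 16.6% to 25.0% in Colgalt2 IPs and 16.1% to 19.5% in inputs. All SOD1*G93A Gprin3 IPs were below all inputs. This bears on calcium channel genes, because they are long.

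The 10 genes lie on 9 chromosomes of the mm10 assembly, with positions taken from the GENCODE annotation. Cacna1a spans 84388440 to 84640246 on chromosome 8, and Cacna1b 24603887 to 24763152 on chromosome 2. Cacna1c spans 118587240 to 119196418 on chromosome 6, and Cacna1d 30039939 to 30491455 on chromosome 14. Cacna1e lies at 154390731 to 154884501 on chromosome 1. The T-type genes lie on chromosome 11 (Cacna1g, 94408391 to 94474198), chromosome 17 (Cacna1h, 25374285 to 25433783) and chromosome 15 (Cacna1i, 80287238 to 80398279). Cacna2d1 spans 15934691 to 16374511 on chromosome 5, and Cacna2d3 28904943 to 29721864 on chromosome 14. Their longest annotated transcripts run from 3.7 kb (Cacna2d3) and 7.44 kb (Cacna2d1) to 13.16 kb (Cacna1c) and 14.92 kb (Cacna1e). For 9 of the 10, at least 94.6% of annotated genes have a shorter longest transcript, and for Cacna2d3 the share is 67.5%. Other counted genes overlap the span of 4 members on the opposite strand: Dcp1b (Cacna1c), Chdh and Dcp1a (Cacna1d), Tpsg1 (Cacna1h) and Lrtm1 (Cacna2d3). Whether counting used strand is not given in the sources used here, so reads of such partners cannot be told apart where exons overlap.

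Upstream sequence was available from RefSeq (GRCm38.p6) for 7 of the 10 members. The 250 bases before an annotated start are shown for 3 members that were lower in SOD1*G93A than WT Gprin3 IPs (Cacna1b, Cacna1d and Cacna2d1) and for Cacna2d3, which did not pass that test, to put their start regions side by side. None of these windows overlaps an annotated GENCODE exon. Capitals mark the GC box motif GGGCGG on either strand, overlapping matches included. The Cacna1b window is chr2:24763153-24763402 on the minus strand, that of Cacna1d chr14:30353487-30353736 on the minus strand, that of Cacna2d1 chr5:15934441-15934690 on the plus strand and that of Cacna2d3 chr14:29721865-29722114 on the minus strand.
Cacna1b: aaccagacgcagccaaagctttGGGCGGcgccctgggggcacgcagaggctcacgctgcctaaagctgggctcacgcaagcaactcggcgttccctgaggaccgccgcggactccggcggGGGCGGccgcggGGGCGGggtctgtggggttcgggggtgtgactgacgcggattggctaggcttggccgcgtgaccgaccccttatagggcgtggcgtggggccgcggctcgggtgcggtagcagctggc
Cacna1d: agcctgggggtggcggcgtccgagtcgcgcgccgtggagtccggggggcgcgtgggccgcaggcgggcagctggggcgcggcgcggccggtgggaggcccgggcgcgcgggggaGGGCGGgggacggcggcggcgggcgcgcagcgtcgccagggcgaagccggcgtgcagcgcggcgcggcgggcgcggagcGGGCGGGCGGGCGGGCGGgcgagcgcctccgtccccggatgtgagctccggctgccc
Cacna2d1: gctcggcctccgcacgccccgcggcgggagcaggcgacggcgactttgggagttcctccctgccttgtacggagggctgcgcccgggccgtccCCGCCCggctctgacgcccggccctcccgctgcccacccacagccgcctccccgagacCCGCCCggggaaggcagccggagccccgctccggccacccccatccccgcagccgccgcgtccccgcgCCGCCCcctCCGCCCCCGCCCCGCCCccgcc
Cacna2d3: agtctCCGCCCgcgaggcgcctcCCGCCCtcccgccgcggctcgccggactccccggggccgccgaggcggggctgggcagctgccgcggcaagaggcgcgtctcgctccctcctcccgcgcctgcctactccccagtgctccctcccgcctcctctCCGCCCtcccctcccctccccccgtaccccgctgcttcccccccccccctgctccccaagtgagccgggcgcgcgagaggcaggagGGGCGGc
GGGCGG occurs 3 times in the Cacna1b window, 5 times in that of Cacna1d, 6 times in that of Cacna2d1 and 4 times in that of Cacna2d3. The motif CGTCA (the core of the cyclic AMP response element), searched in the same way, occurs once each in the Cacna1b and Cacna2d1 windows and in 17.8% of all windows. GC content is 72.0%, 86.4%, 82.4% and 80.0% in the same order. Of 32851 mouse promoter windows of the same length, 32.7% hold GGGCGG and the median GC content is 52.4%. No GGGCGG was found in the window of Cacna1e (52.0% GC) or in 2 of the 3 windows of Cacna1c (51.6% and 50.4% GC), while the other Cacna1c window holds 6 (82.8% GC). GGGCGG is absent from the Cacna1i window (chr15:80286988-80287237, plus strand), whose GC content is 62.4%, and from the window of another RefSeq start of Cacna1d (chr14:30491157-30491406, minus strand).

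Levels per length placed Cacna2d1 first in 8 of the 10 groups. In WT M1 input, CPM per kb of longest transcript was 40.4 ± 2.57 (SD, n = 5) for Cacna2d1, followed by 14.8 ± 1.71 for Cacna2d3, 14.6 ± 2.08 for Cacna1b and 12.4 ± 0.357 for Cacna1e. The ranges of the last 3 overlapped between neighbours. Cacna1a followed at 7.89 ± 0.644 CPM per kb, and then Cacna1c (4.03 ± 0.363), Cacna1i (4.02 ± 0.391), Cacna1d (2.70 ± 0.175) and Cacna1g (2.37 ± 0.402). Cacna1h was the lowest, at 0.910 ± 0.087 CPM per kb, and did not overlap its neighbour. Cacna1h was also the last in the other 3 input groups. Its place was higher in 5 of the 6 IP groups, though it was also last in Colgalt2 baseline IPs (2.95 ± 0.337 CPM per kb, n = 2): in Gprin3 baseline IPs it stood seventh of the 10 at 3.54 ± 0.852 CPM per kb (n = 2), above Cacna1c (2.40 ± 0.462), Cacna1g (1.98 ± 0.417) and Cacna1d (1.57 ± 0.391). Among alpha1 genes, Cacna1e had the highest mean per kb of longest transcript in all 6 IP groups. Its means ran from 10.5 ± 1.09 CPM per kb in Gprin3 baseline IPs to 30.5 ± 2.87 in Colgalt2 baseline IPs. Per kb of joined exons, the mean of Cacna1b was above that of Cacna1e in all Gprin3 IP groups and in Colgalt2 baseline IPs. At baseline these means were 8.91 and 6.22 in Gprin3 IPs and 18.9 and 18.1 in Colgalt2 IPs. In Colgalt2 IPs of the second set, Cacna1e stayed above Cacna1b by this measure. In inputs, Cacna1b and Cacna1e overlapped in all 4 groups per kb of longest transcript. Per kb of joined exons their means in WT M1 input were 14.3 and 7.33.

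Taken as a pool per length, the alpha1 genes were mostly of the Cav2 family in every library. Cav2 genes made up 66.7% ± 2.80 (SD, n = 3) of the summed alpha1 level in Gprin3 baseline input and 73.1% ± 6.37 (n = 3) in SOD1*G93A Gprin3 IPs, and the other group means lay between 66.1% and 72.5%. L-type genes took 9.27% and 9.37% in the 2 Gprin3 baseline IPs, against 14.6% to 15.5% in the 3 inputs, without overlap. In SOD1*G93A Gprin3 IPs they took 7.06% to 11.0%, below the 11.7% to 13.2% of the WT IPs. The Cacna1h share was 6.94% and 9.64% in Gprin3 baseline IPs and 2.35% to 3.98% in their inputs, 3.72% to 4.27% in WT Gprin3 IPs and 1.76% to 2.07% in WT M1 inputs. In SOD1*G93A Gprin3 IPs it was 5.67% to 7.71%, above both WT IPs. These shares compare genes within a library and use annotated length, not the transcripts in use, and were not tested.

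**Figure D1:**
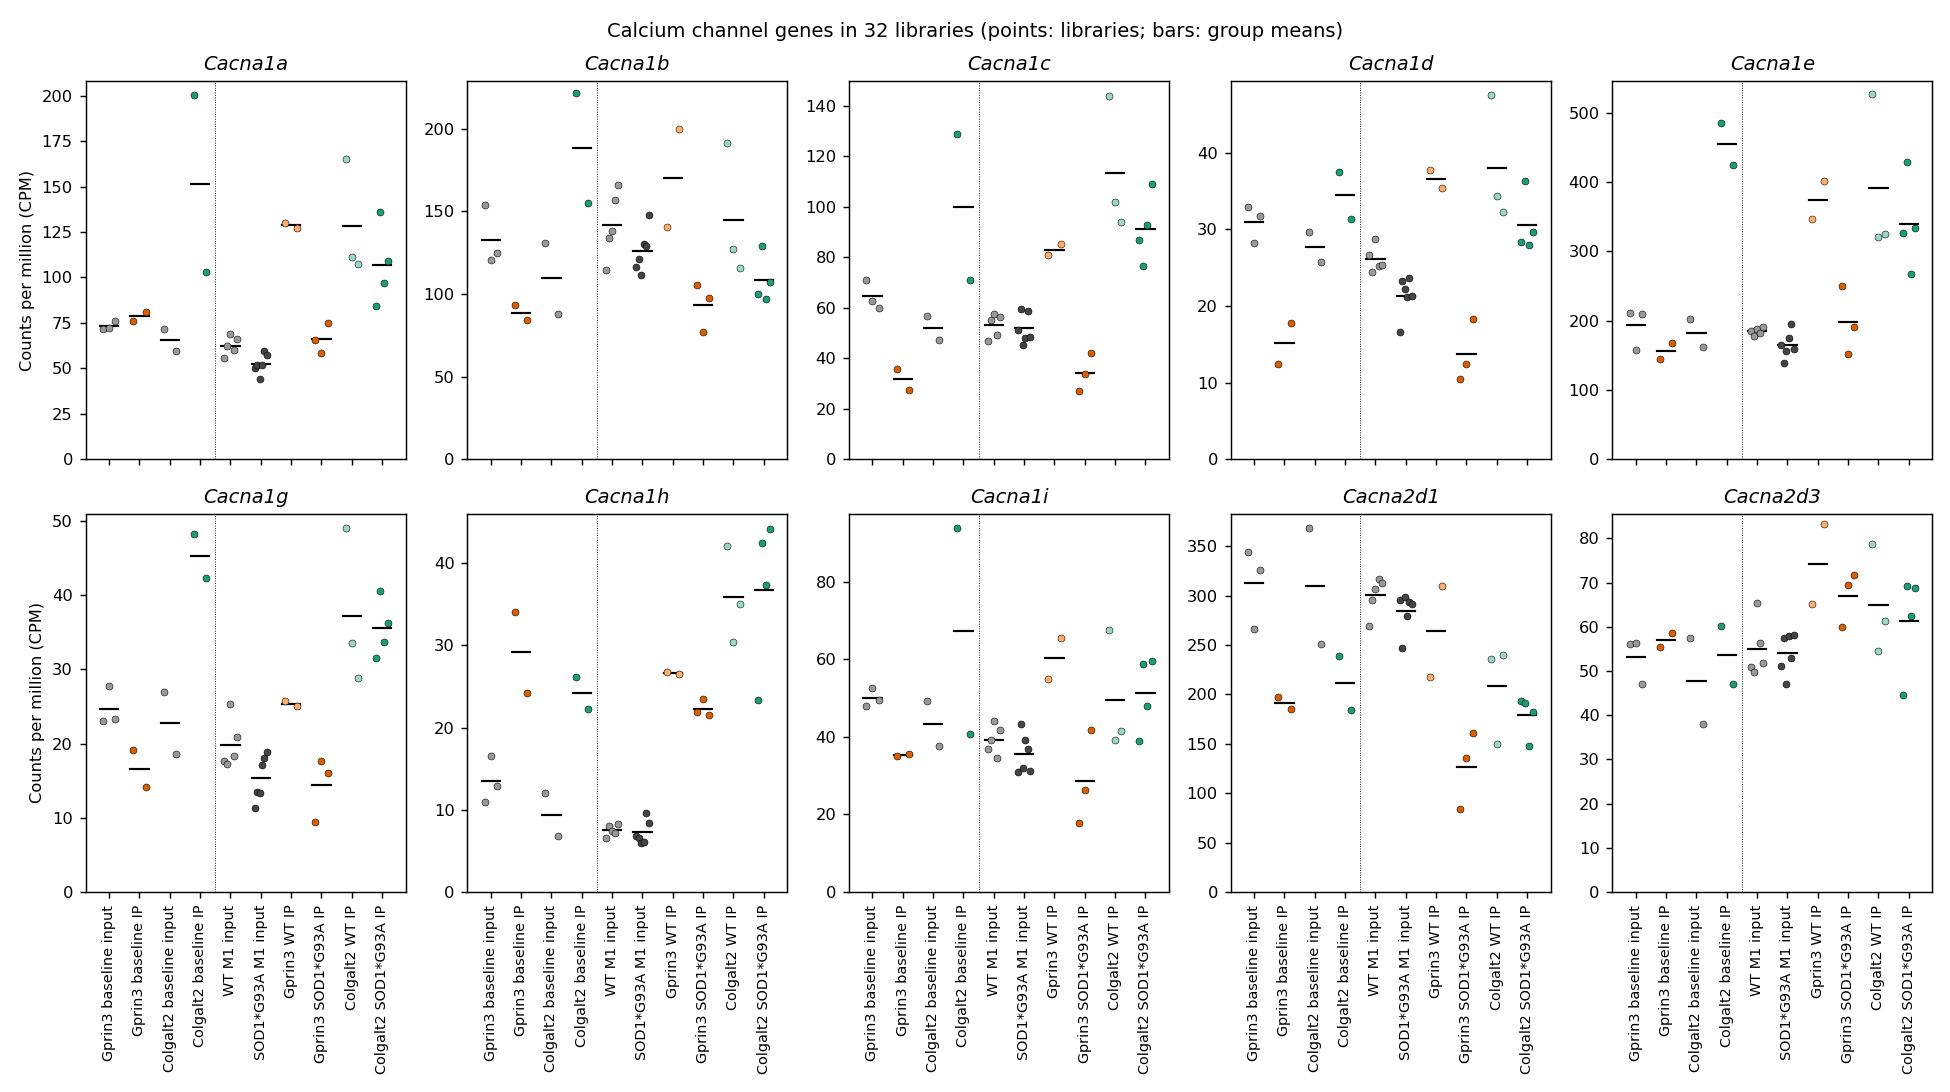
CPM of the 10 calcium channel genes in each library (points) with group means (bars), for baseline groups left of the dotted line and the SOD1*G93A set right of it. Cacna1h lies between 21.5 and 44.1 CPM in IPs and between 5.99 and 16.5 CPM in inputs, without overlap.

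**Figure D2:**
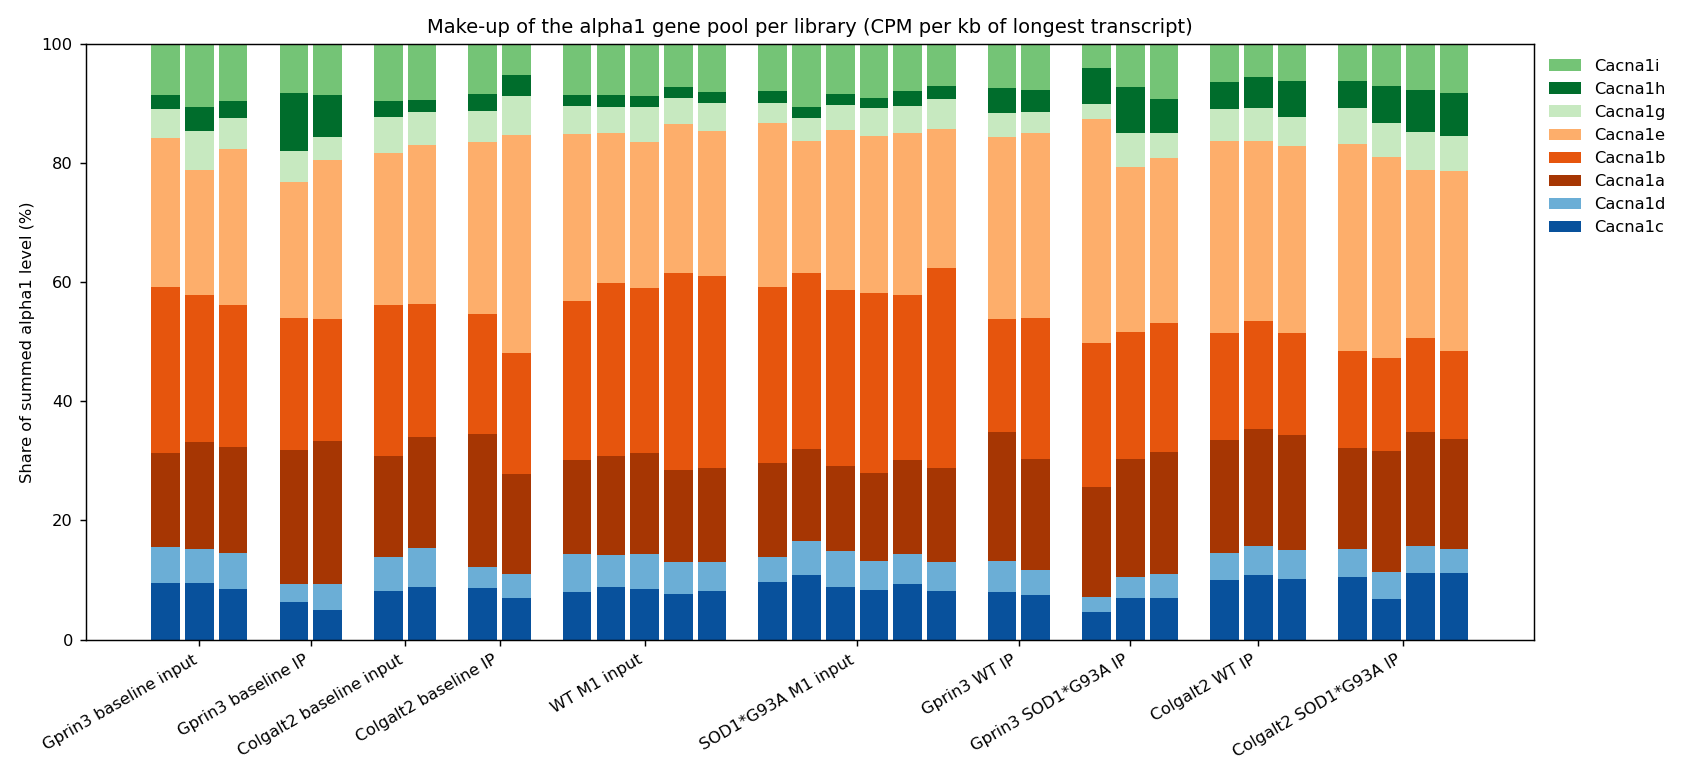
Share of each alpha1 gene in the summed alpha1 level per library, in percent of CPM per kb of longest transcript, with 1 bar per library. The widest Cacna1h band is 9.64%, in a Gprin3 baseline IP, and the narrowest is 1.68%, in a SOD1*G93A M1 input.

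The T-type gene Cacna1h was enriched in Gprin3 IPs in all 3 sets of libraries, which share no library. It stood at 34.1 and 24.2 CPM in the 2 baseline IPs and at 11.0, 16.5 and 12.9 CPM in the 3 inputs. In WT mice of the second set it stood at 26.8 and 26.5 CPM in IPs and at 6.54, 8.06, 7.41, 7.12 and 8.31 CPM in M1 inputs. In SOD1*G93A mice the IPs held 21.9, 23.5 and 21.5 CPM and the 6 inputs 5.99 to 9.64 CPM with a median of 6.69. All IPs were above all inputs in each set. The log2 fold change of IP over input was 1.34 ± 0.25 (SE, adjusted p = 0.00178) at baseline, 1.96 ± 0.18 (adjusted p = 6.45e-08) in WT and 1.69 ± 0.18 (adjusted p = 3.94e-06) in SOD1*G93A mice. Adjusted p-values are Benjamini-Hochberg values from edgeR's quasi-likelihood test over all genes tested, and a gene is called when its value is under 0.05. Leaving out any 1 library kept the call in 5 of 5, 7 of 7 and 9 of 9 fits. The Colgalt2 baseline IPs (26.2 and 22.3 CPM) were also above their inputs (9.41 ± 3.64 CPM, SD, n = 2), by 1.62 ± 0.34 on the log2 scale with an adjusted p of 0.0541, and the difference between the enrichments of the lines was -0.21 (95% interval -1.12 to 0.70). In the second set, in which the Colgalt2 IPs were not set against an input, they held 30.4 to 42.1 CPM in WT and 23.3 to 44.1 CPM in SOD1*G93A mice.

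Markers of other cells moved with IP in the Gprin3 line. All 12 interneuron markers were in the tables, none at 0 in any group, and summed to 2679.6 to 2784 CPM in baseline IPs against 1615 to 1778 CPM in inputs, to 2107 to 2179 against 1509 to 1648 CPM in WT, and to 2202 to 2482.5 against 1471 to 1552 CPM in SOD1*G93A mice. In Colgalt2 baseline IPs, where Cacna1h was above input too, the sum was 1306 and 1944 CPM against 1683 and 1811 CPM in inputs. The 10 astrocyte markers were lower in Gprin3 baseline IPs (761.9 to 795.2 CPM) than in inputs (2625 to 3090.0 CPM). The part of interneuron or glial RNA in the values was not tested. In such tissue, fewer cells of a type and less RNA per cell cannot be told apart.

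At baseline, the L-type genes were lower in Gprin3 IPs than in inputs. Cacna1c stood at 35.9 and 27.3 CPM in IPs and at 70.8, 62.8 and 59.9 CPM in inputs, a log2 change of -0.81 ± 0.19 (adjusted p = 0.00764). Cacna1d stood at 12.5 and 17.8 CPM in IPs and at 32.9, 28.2 and 31.8 CPM in inputs, a change of -0.82 ± 0.22 (adjusted p = 0.016). IPs and inputs did not overlap for either gene. The alpha2delta gene Cacna2d1 was lower too, at 197.3 and 185.0 CPM in IPs and 344.6, 266.3 and 325.9 CPM in inputs (-0.49 ± 0.15, adjusted p = 0.0284). With Cacna1h, 4 of the 10 members passed, 1 higher and 3 lower, where 29.2% of the 14527 genes tested were called, 13.9% higher and 15.3% lower. The median log2 change was -0.32 over the members and -0.03 over all genes. The other 6 members did not pass: Cacna1a (0.32 ± 0.14, adjusted p = 0.113) and Cacna2d3 (0.32 ± 0.16) had positive values, and Cacna1b (-0.36), Cacna1e (-0.08), Cacna1g (-0.35) and Cacna1i (-0.29) negative ones. The number called was 1 without input 1 and 2 without input 3, and calls over all genes in these fits are not given here.

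In WT mice of the second set, Cacna1c and Cacna1d were higher in Gprin3 IPs than in inputs. Cacna1c stood at 80.8 and 85.3 CPM in IPs and at 46.7 to 57.7 CPM in the 5 inputs (0.77 ± 0.11, adjusted p = 1.88e-05). Cacna1d stood at 37.7 and 35.4 CPM against 24.5 to 28.7 CPM (0.61 ± 0.14, adjusted p = 0.00137). Neither gene overlapped between IP and input here. The Cav2 genes were also higher, Cacna1a from 127.4 to 130.2 CPM against 55.7 to 68.8 CPM (1.17 ± 0.10, adjusted p = 3.82e-08) and Cacna1e at 347.3 and 402.2 CPM against 177.3 to 191.3 CPM (1.14 ± 0.08, adjusted p = 3.48e-09). Cacna1b overlapped between IP and input and rose by the smallest amount (0.39 ± 0.14, adjusted p = 0.039), a call kept in 3 of 7 fits with 1 library left out. The T-type gene Cacna1g overlapped too, at 25.7 and 25.0 against 17.2 to 25.3 CPM (0.48 ± 0.17, adjusted p = 0.0295), and kept its call in 2 of 7 such fits. Cacna1i stood at 55.0 and 65.5 against 34.5 to 44.1 CPM (0.74 ± 0.13), and Cacna2d3 at 65.1 and 83.3 against 49.8 to 65.3 CPM (0.56 ± 0.13). In all, 9 of the 10 members were higher and none lower, where 40.4% of 14930 genes were called and 20.6% were higher. The median was 0.68 over the members and -0.04 over all genes. The member that did not pass was Cacna2d1 (217.6 and 309.9 CPM in IPs, 269.4 to 316.8 CPM in inputs, -0.06 ± 0.11).

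SOD1*G93A mice gave another pattern. Against their own M1 inputs, Gprin3 IPs had higher Cacna1h, Cacna1a (58.3 to 74.7 against 44.0 to 59.5 CPM, 0.41 ± 0.12, adjusted p = 0.00928) and Cacna2d3 (60.0 to 71.6 against 47.0 to 58.2 CPM, 0.38 ± 0.10, adjusted p = 0.00643). Cacna2d1 was lower at 83.5, 135.8 and 161.0 CPM in IPs against 246.9 to 298.3 CPM in the 6 inputs (-1.10 ± 0.15, adjusted p = 3.28e-05), with no overlap. Cacna1b (-0.35 ± 0.12), Cacna1c (-0.53 ± 0.14) and Cacna1d (-0.56 ± 0.19) were lower as well. These are 3 members higher and 4 lower, where 49.8% of 14460 genes were called, 24.7% higher and 25.1% lower. Cacna1e (0.34 ± 0.14, adjusted p = 0.053), Cacna1g (-0.03 ± 0.22) and Cacna1i (-0.24 ± 0.21) did not pass.

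The change of direction of the L-type genes between the 2 wild-type Gprin3 sets was tested as an interaction, a comparison added after the values were seen. The IP-over-input difference was lower at baseline than in the second set by 1.57 ± 0.20 on the log2 scale for Cacna1c (adjusted p = 2.67e-05) and by 1.42 ± 0.24 for Cacna1d (adjusted p = 0.000404). Cacna1a, Cacna1b, Cacna1e and Cacna1i were lower as well, by 0.84, 0.74, 1.22 and 1.02, making 6 of 10 members, all lower, where 12.3% of 15342 genes were called and 8.05% lower. For Cacna1h the interaction was -0.61 ± 0.30 (adjusted p = 0.198). It did not pass either for Cacna1g (-0.82 ± 0.28, adjusted p = 0.0551), Cacna2d1 (-0.42 ± 0.18) or Cacna2d3 (-0.23 ± 0.20). The sets differ in the cross, and whatever else differed between them cannot be told apart from it.

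**Figure D3:**
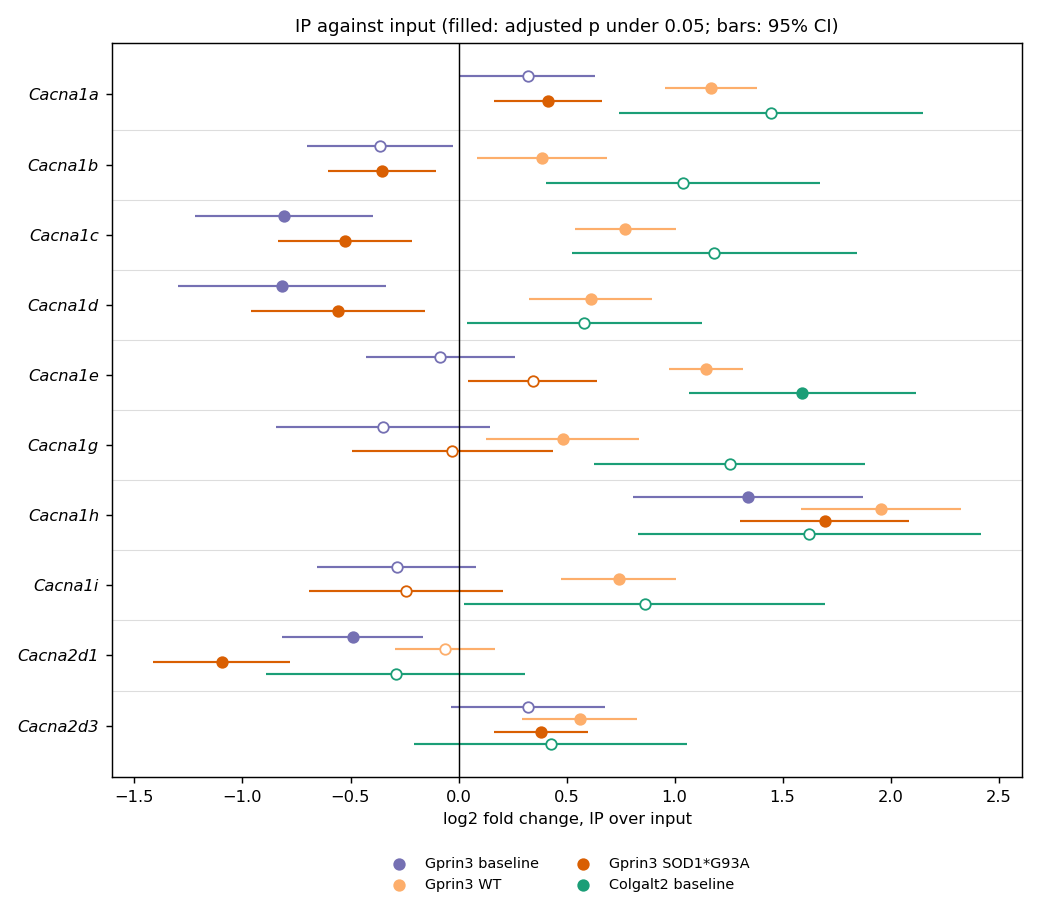
Log2 fold change of IP over input for each gene in 4 comparisons, with 95% confidence intervals; filled points have an adjusted p under 0.05. Cacna1h is at 1.34 or above in all 4, and Cacna1c and Cacna1d are below 0 in the baseline and SOD1*G93A Gprin3 comparisons and above 0 in the other 2.

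In the Colgalt2 line at baseline, Cacna1e was higher in IPs. It stood at 486.0 and 425.4 CPM in the 2 IPs and at 202.2 and 162.2 CPM in the inputs, a log2 change of 1.59 ± 0.22 (adjusted p = 0.0389). It was the single member of 10 that passed, where 2.65% of 14240 genes were called and 1.75% higher. Values of 7 other alpha1 genes were positive without passing, from 0.58 ± 0.23 for Cacna1d to 1.62 ± 0.34 for Cacna1h. Cacna2d3 (0.43 ± 0.27) and Cacna2d1 (-0.29 ± 0.25) did not pass either. The median was 1.11 over the members and 0.03 over all genes. The 2 IPs were unlike each other: Cacna1a stood at 200.2 CPM in IP 1 and 102.9 CPM in IP 2, and Cacna1i at 93.7 and 40.8 CPM. Leaving out 1 library moved the count to 8 without IP 1, 9 without IP 2, and 0 without either input. The calls over all genes moved with it, from 378 to 7202 and 4952 without an IP and to 1 and 8 without input 1 or 2. In these fits 1 library remains in an arm and is assumed to vary like the others. The 12 vascular markers summed to 108.3 and 280.3 CPM in these IPs and to 96.1 and 128.8 CPM in the Colgalt2 baseline inputs. In Gprin3 baseline IPs the sum was 37.4 and 43.7 CPM, and the part of vascular RNA in the values was not tested.

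Between the lines at baseline, 4 alpha1 genes were lower in Gprin3 than in Colgalt2 IPs. Cacna1e stood at 145.4 and 168.4 CPM against the 486.0 and 425.4 CPM above (-1.54 ± 0.25, adjusted p = 0.00343). Cacna1c stood at 35.9 and 27.3 against 128.7 and 70.8 CPM (-1.63 ± 0.32, adjusted p = 0.01). The T-type gene Cacna1g stood at 19.1 and 14.1 against 48.2 and 42.3 CPM (-1.44 ± 0.33, adjusted p = 0.0222), and the N-type gene Cacna1b at 93.1 and 84.1 against 221.5 and 154.9 CPM (-1.07 ± 0.27, adjusted p = 0.0287). None of these 4 overlapped between the lines. No member was higher, and 6.67% of 13604 genes were called, 4.45% lower. The remaining values were -1.18 ± 0.35 for Cacna1d (adjusted p = 0.0553), -0.93 for Cacna1a, -0.90 for Cacna1i, 0.27 for Cacna1h, -0.14 for Cacna2d1 and 0.09 for Cacna2d3. The count was 0 without Gprin3 IP 1 or Gprin3 IP 2, and 7 without Colgalt2 IP 2, fits that leave 1 library in an arm. Over all genes the calls went from 907 to 135, 247 and 1711 in the same order. Set against input, the IP difference between the lines did not pass for Cacna1h (-0.21), Cacna1i (-1.07 ± 0.37), Cacna2d1 (-0.12) or Cacna2d3 (-0.03). The other 6 members had a lower IP difference in the Gprin3 line, from -1.05 ± 0.31 for Cacna1a (adjusted p = 0.0497) to -1.91 ± 0.33 for Cacna1c (adjusted p = 0.00467), where 8.69% of 15045 genes were called and 5.46% lower. That count was 3 without Gprin3 baseline input 1 and 2 without Colgalt2 baseline input 2.

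In WT mice of the second set no member differed between the lines by edgeR or DESeq2, with 2 at an unadjusted p under 0.05 (Cacna1c, -0.45, and Cacna1g, -0.56), where 13% of 14813 genes were called. The values of all members ran from -0.56 (Cacna1g) to 0.32 (Cacna2d1). The 95% intervals of the difference were -0.54 to 0.41 for Cacna1e and -0.95 to 0.07 for Cacna1h. In SOD1*G93A mice 8 members were lower in Gprin3 IPs, where 33.6% of 13750 genes were called and 16.6% lower. Cacna1c stood at 27.1, 33.8 and 42.0 CPM in Gprin3 IPs and at 86.8, 76.4, 92.8 and 109.0 CPM in Colgalt2 IPs (-1.41 ± 0.19, adjusted p = 3.87e-05). Cacna1g stood at 9.39, 17.6 and 16.1 against 31.6, 40.6, 33.7 and 36.2 CPM (-1.31 ± 0.24, adjusted p = 0.000545), and Cacna1d changed by -1.15 ± 0.25 (adjusted p = 0.00198). The other 5 were Cacna1a, Cacna1e, Cacna1h, Cacna1i and Cacna2d1, from -0.50 to -0.84. The count was 5 without Gprin3 IP 2, Colgalt2 IP 2 or Colgalt2 IP 4 of the SOD1*G93A groups. Calls over all genes in these fits are not given here. Cacna1b (-0.21) and Cacna2d3 (0.13) did not pass. Line and tissue cannot be told apart in this set.

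With SOD1*G93A, 6 calcium channel genes were lower in Gprin3 IPs. Cacna1c stood at 80.8 and 85.3 CPM in WT IPs and at 27.1, 33.8 and 42.0 CPM in SOD1*G93A IPs (-1.28 ± 0.21, adjusted p = 0.00517). Cacna1d stood at 37.7 and 35.4 against 10.5, 12.4 and 18.3 CPM, the largest change of the 10 (-1.41 ± 0.29, adjusted p = 0.0153). All SOD1*G93A values of these L-type genes were under all WT values. Each Cav2 gene was lower: Cacna1a at 130.2 and 127.4 against 65.4, 58.3 and 74.7 CPM (-0.96 ± 0.16, adjusted p = 0.00666), Cacna1b at 140.7 and 199.7 against 105.5, 76.9 and 97.6 CPM (-0.86 ± 0.20, adjusted p = 0.0249), and Cacna1e at 347.3 and 402.2 against 250.0, 152.3 and 190.5 CPM (-0.92 ± 0.20, adjusted p = 0.0199). Cacna2d1 stood at 217.6 and 309.9 against 83.5, 135.8 and 161.0 CPM (-1.07 ± 0.24, adjusted p = 0.0213). Groups overlapped for none of these 6. Among the T-type genes none passed: Cacna1i had -1.08 ± 0.30 (adjusted p = 0.055), Cacna1g -0.83 ± 0.31 (adjusted p = 0.126) and Cacna1h -0.26 ± 0.23 (adjusted p = 0.565). Cacna2d3 stood at 65.1 and 83.3 against 60.0, 69.5 and 71.6 CPM (-0.15 ± 0.18).

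These 6 of 10 compare with 8.15% of 13726 genes called and 5.22% lower, and the median was -0.94 over the members and 0.01 over all genes. The count was 2 without WT IP 1 and 0 without WT IP 2, where 294 and 142 genes in all were called in place of 1118. In these fits 1 WT library remains and is assumed to vary like the SOD1*G93A ones. The SOD1*G93A IPs also held less of the glial markers: the 10 oligodendrocyte markers summed to 138.4 to 148.9 CPM against 480.2 and 659.7 CPM in WT, and the 10 astrocyte markers to 661.9 to 700.8 against 1520.0 and 2266 CPM. The part of these in the values was not tested. The SOD1*G93A IPs were also set side by side with the wild-type baseline IPs of the same line for the 6 genes. Group means were 34.3 and 31.6 CPM for Cacna1c, 13.8 and 15.2 CPM for Cacna1d, and 66.1 and 78.5 CPM for Cacna1a. They were 93.3 and 88.6 CPM for Cacna1b, 197.6 and 156.9 CPM for Cacna1e, and 126.8 and 191.1 CPM for Cacna2d1. For Cacna1a and Cacna2d1 all SOD1*G93A libraries were below all baseline ones, and for the rest the libraries overlapped. That pair of groups was not tested.

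No member passed the test for SOD1*G93A in Colgalt2 IPs or in M1 input. The 10 log2 changes ran from -0.41 (Cacna1b) to 0.06 (Cacna1i) in Colgalt2 IPs and from -0.33 (Cacna1g) to 0.03 (Cacna2d3) in M1 input. In Colgalt2 IPs edgeR called 0% of 14785 genes, with 1073 genes and 1 member (Cacna1b, -0.41 ± 0.18) at an unadjusted p under 0.05, while DESeq2 called 72 genes and no member. The 95% intervals were -0.68 to 0.07 for Cacna1c and -0.61 to 0.21 for Cacna1e. In Gprin3 IPs the intervals were -1.74 to -0.83 for Cacna1c and -1.36 to -0.48 for Cacna1e, so those of Cacna1e overlapped between the lines. The difference between the lines is tested below. In M1 input 3.33% of 14324 genes were called and no member by edgeR or DESeq2, with 3 members at an unadjusted p under 0.05 (Cacna1a, -0.22 ± 0.08; Cacna1d, -0.25 ± 0.10; Cacna1g, -0.33 ± 0.13). The difference between the SOD1*G93A effects in the 2 lines called no member, with 7 at an unadjusted p under 0.05 and 0.0775% of 15476 genes called. For Cacna1c that difference was -0.95 ± 0.28 (adjusted p = 0.237) and for Cacna1e -0.69 ± 0.31 (adjusted p = 0.5). The values of all 10 members ran from -1.11 (Cacna1i) to -0.04 (Cacna2d3). A joint fit of the set called 3 members lower for the same difference, Cacna1c (-0.99 ± 0.23, adjusted p = 0.0123), Cacna1d (-1.12 ± 0.26) and Cacna1i (-1.16 ± 0.31), and DESeq2 called none. How many of all genes the joint fit called for this difference is not given here. For SOD1*G93A in Gprin3 IPs the joint fit called 3007 genes in all, in place of 1118. The difference between Gprin3 IP and M1 input did not pass for Cacna1g (-0.51 ± 0.29), Cacna1h (-0.27 ± 0.26) or Cacna2d3 (-0.19 ± 0.17). It was called for the other 7 members, all lower, where 18.2% of 15495 genes were called and 11.4% lower. These were Cacna1c (-1.30 ± 0.19, adjusted p = 3.76e-05), Cacna1d (-1.18 ± 0.24), Cacna2d1 (-1.04 ± 0.21), Cacna1i (-0.99 ± 0.27), Cacna1e (-0.81 ± 0.18), Cacna1a (-0.76 ± 0.16) and Cacna1b (-0.74 ± 0.20). That count was 4 without WT Gprin3 IP 2.

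**Figure D4:**
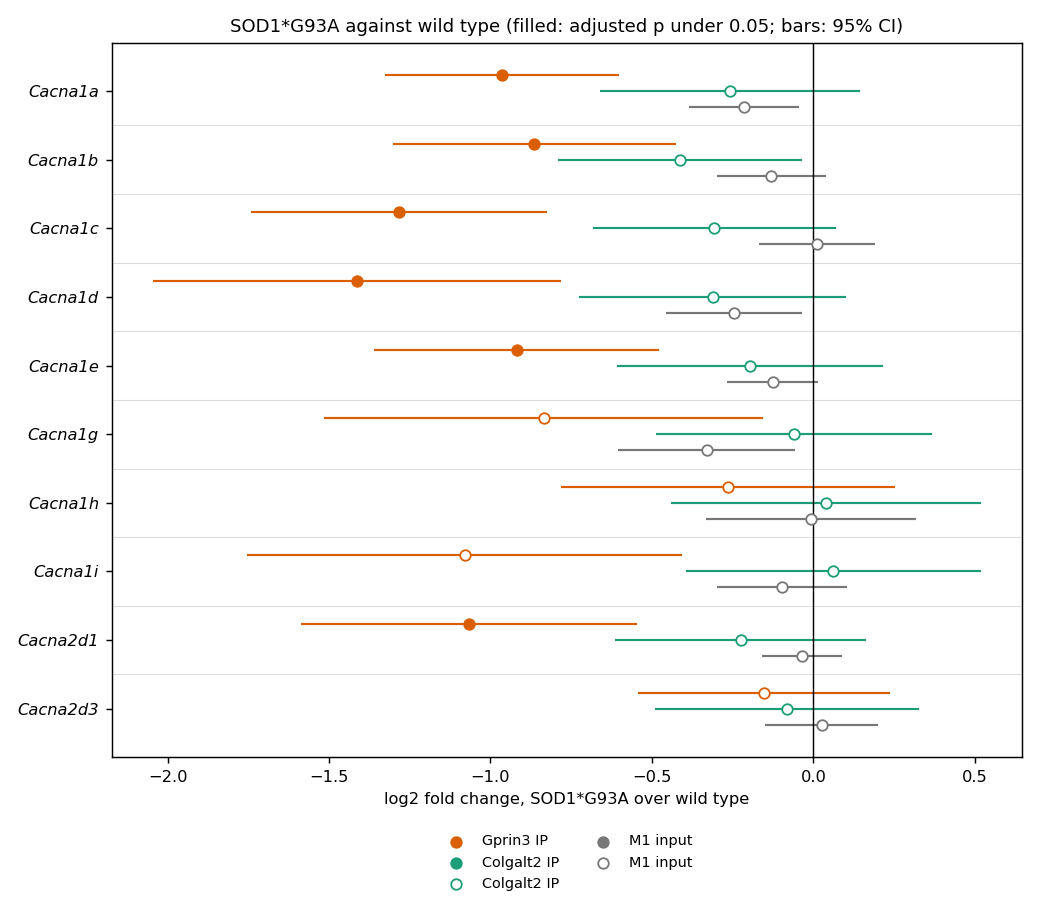
Log2 fold change of SOD1*G93A over wild type for each gene in Gprin3 IPs, Colgalt2 IPs and M1 input, with 95% confidence intervals; filled points have an adjusted p under 0.05. In Gprin3 IPs 6 genes are filled, from -0.86 to -1.41, and none is filled in the other 2.

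Several of these differences ran along transcript length. Taken over genes, whose values do not count as independent replicates, the log2 change with SOD1*G93A in Gprin3 IPs fell with the length of the longest transcript (Spearman -0.38 over 13484 genes). Among the 1265 tested genes of 7 to 15 kb, the range that holds 9 members, its median was -0.50 and 27.5% were called lower. Between the lines at baseline the correlation was also -0.38, the median of such genes -0.66 and the share lower 22.7%. For WT Gprin3 IPs over input the correlation was 0.17, the median 0.17 and the share higher 39.3%. For baseline Gprin3 IPs over input these were -0.14, -0.27 and 7.21%, with 29.6% lower. In Colgalt2 IPs the SOD1*G93A correlation was -0.34 and the median -0.19, although no gene was called.

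A fit with the length trend of each library taken out ended most calls. With SOD1*G93A in Gprin3 IPs no member was called, while 503 genes in all were, and the values became -0.56 ± 0.21 for Cacna1c (adjusted p = 0.178), -0.87 ± 0.29 for Cacna1d and -0.11 ± 0.22 for Cacna1e. Between the lines at baseline no member was called either (-0.70 ± 0.27 for Cacna1c and -0.51 ± 0.24 for Cacna1e), and 290 genes in all were called in place of 907. The Colgalt2 IP call of Cacna1e was lost (0.91 ± 0.21, adjusted p = 0.0777), in an edgeR fit that called 0 of 14240 genes (378 with the trend left in), with 3523 at an unadjusted p under 0.05. The interaction of IP over input between lines fell from 6 calls to 0 (731 genes in all, from 1307), and that of Gprin3 IP and M1 input from 7 to 2 (1849 genes in all, from 2819), Cacna1c (-0.58 ± 0.18) and Cacna2d1 (-0.65 ± 0.20). Between the wild-type Gprin3 sets Cacna1c (-0.90 ± 0.18, adjusted p = 0.00364) and Cacna1d (-0.90 ± 0.25, adjusted p = 0.0256) stayed called. In WT Gprin3 IPs over input, Cacna1d lost its call (0.29 ± 0.14, adjusted p = 0.0996) and Cacna1c went from 0.77 to 0.37 ± 0.11 (adjusted p = 0.0102), while Cacna1b and Cacna1g also lost theirs. At baseline Cacna1d lost its call as well (-0.59 ± 0.23, adjusted p = 0.065). In SOD1*G93A Gprin3 IPs over input the calls of Cacna1b (-0.12 ± 0.12), Cacna1c (-0.19 ± 0.14) and Cacna1d (-0.33 ± 0.19) were lost. This left 4 members higher and 1 lower (6944 genes called in all, from 7202). Between the lines in SOD1*G93A mice 4 of 8 calls remained (4446 genes in all, from 4615): Cacna1a, Cacna1c, Cacna1d and Cacna1g. Such a fit removes any difference that goes with length, whatever its source.

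Against their inputs, 3 members were called in 1 direction in all 3 Gprin3 sets once the length trend was out. Over all genes, these fits called 4359 of 14527 at baseline, 6097 of 14930 in WT and 6944 of 14460 in SOD1*G93A mice. How many of all genes were called in 1 direction in all 3 sets was not counted. Cacna1h was higher by 1.48 ± 0.24, 1.68 ± 0.18 and 1.88 ± 0.18 on the log2 scale at baseline, in WT and in SOD1*G93A mice (adjusted p = 0.000963, 4.53e-07 and 1.57e-06). The P/Q-type gene Cacna1a was higher by 0.47 ± 0.14, 0.91 ± 0.10 and 0.59 ± 0.12 (adjusted p = 0.0236, 6.11e-07 and 0.000889), where the fit without that step gave no call at baseline. Cacna2d1 was lower, at -0.35 ± 0.13, -0.31 ± 0.10 and -0.95 ± 0.15 (adjusted p = 0.0498, 0.0211 and 0.000116), where that fit gave no call in WT. Cacna1e was higher in WT and SOD1*G93A mice (0.71 ± 0.08 and 0.73 ± 0.14) and did not pass at baseline (0.28 ± 0.15, adjusted p = 0.157). Cacna2d3, the member with the shortest transcript, moved least with this step in these 3 comparisons: 0.31, 0.54 and 0.38 with it and 0.32, 0.56 and 0.38 without it.

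**Figure D5:**
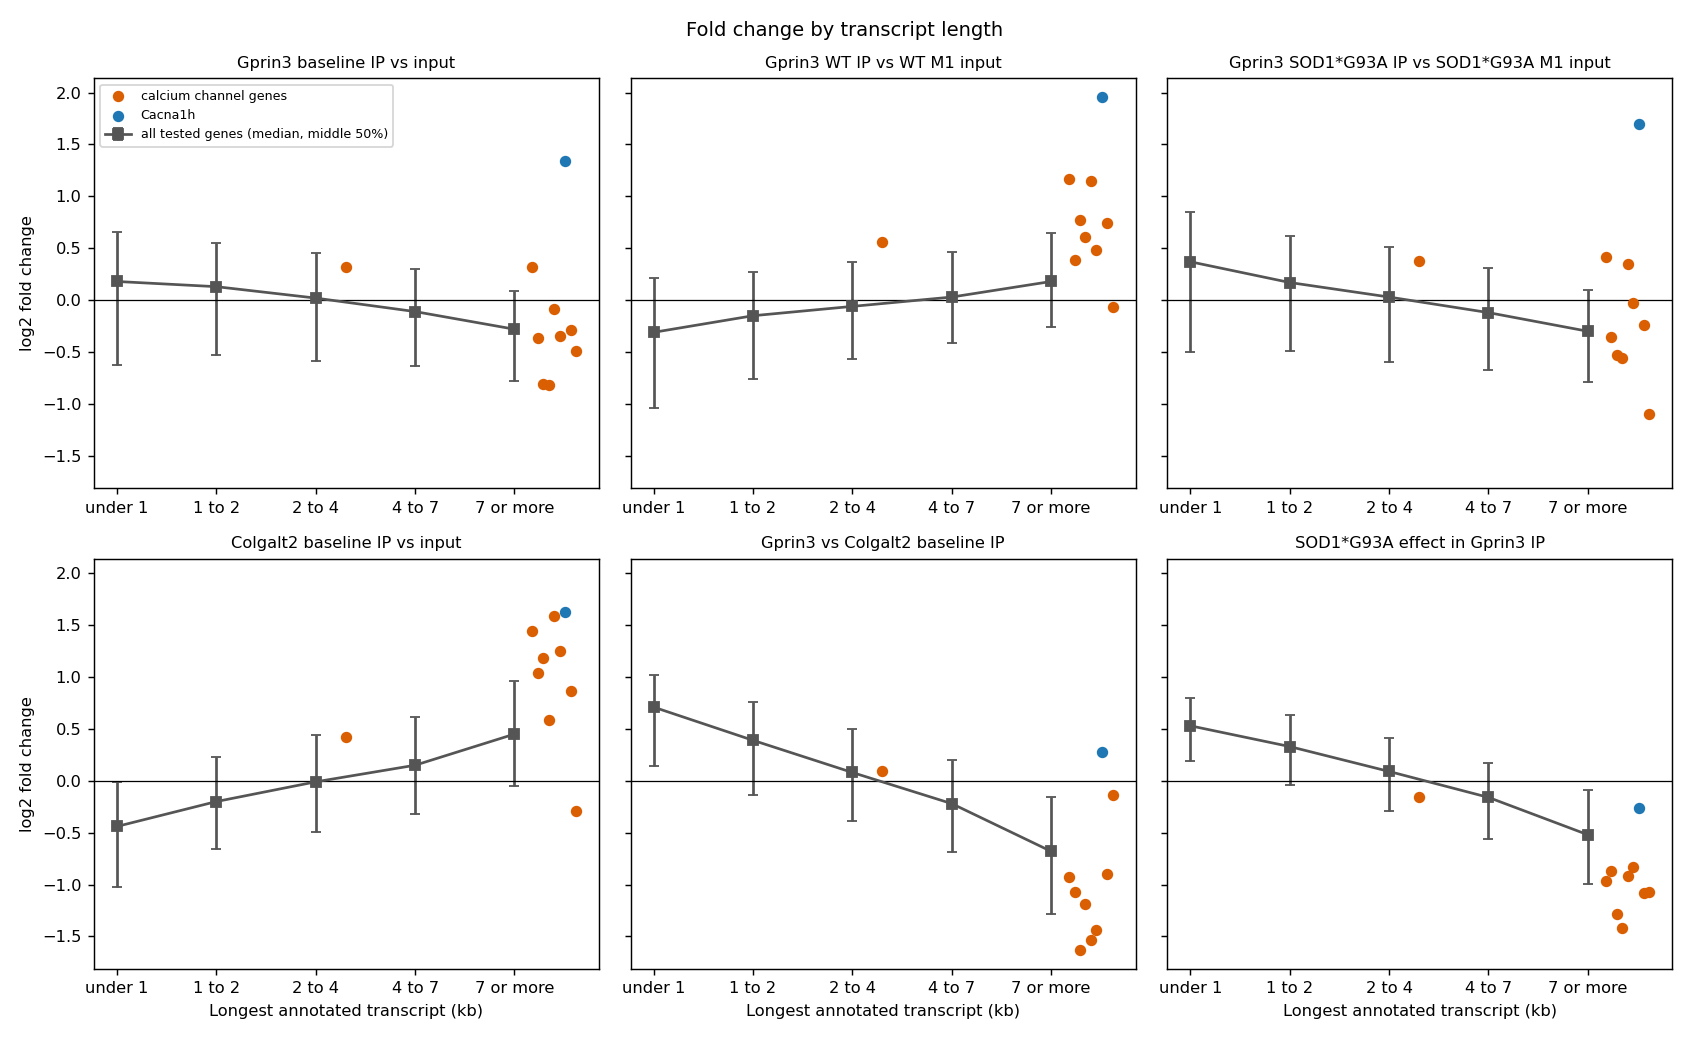
Log2 fold change by class of longest transcript (kb) for all tested genes (squares, medians; bars, middle 50%) in 6 comparisons, with the calcium channel genes as points placed beside their class and spread sideways only for legibility. Cacna1h (blue) lies above the bar of its class in 5 of the 6 panels and within it for SOD1*G93A in Gprin3 IPs, where it is at -0.26 and the class median at -0.52.

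Other subunits of the channel were read from a list of 16 genes. The beta subunits, which bind alpha1 inside the cell, and the gamma genes, several of which also act as AMPA receptor auxiliary proteins, mostly have shorter transcripts. At baseline 13 were tested in Gprin3 IPs over input, with 1 higher and 2 lower, where 13.9% of 14527 genes were higher and 15.3% lower. Cacna2d2, another alpha2delta gene, was higher in all 3 Gprin3 sets, at 32.2 ± 5.25 (SD, n = 2) against 21.0 ± 1.37 CPM (n = 3) at baseline, with log2 changes of 0.84 ± 0.20, 1.17 ± 0.16 and 1.34 ± 0.16 (SE). Cacng2 (stargazin) was lower in all 3 sets, at -0.96 ± 0.17, -0.84 ± 0.15 and -0.84 ± 0.18, as was Cacnb3, at -0.43 ± 0.14, -0.29 ± 0.09 and -0.26 ± 0.09. In WT, 2 of 14 tested were higher and 5 lower, where 3079 of 14930 genes were higher and 2958 lower. In SOD1*G93A mice 5 of 13 were higher and 3 lower, where 24.7% of 14460 genes were higher and 25.1% lower. Cacnb3 was also lower in Gprin3 than in Colgalt2 IPs of the second set (-1.17 ± 0.20 in WT and -1.18 ± 0.16 in SOD1*G93A mice). With SOD1*G93A in Gprin3 IPs edgeR called none of 12 tested, with 2 at an unadjusted p under 0.05 and 1 called by DESeq2. The median was -0.09, against -0.94 over the members, and edgeR called 8.15% of 13726 genes. In M1 input 1 of 13 was called, Cacng7 (-0.39 ± 0.10), where 3.33% of 14324 genes were called.

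A further list held 22 channel regulators and presynaptic partners. Stac2, an adaptor of L-type channels, was higher in Gprin3 IPs than inputs in all 3 sets (1.15 ± 0.15, 0.87 ± 0.09 and 1.47 ± 0.12), at 259.2 ± 31.4 against 136.3 ± 14.3 CPM at baseline. Bsn, which encodes the active zone scaffold bassoon, changed direction between sets like the L-type genes did, at -1.50 ± 0.14 at baseline, 0.97 ± 0.08 in WT and -1.26 ± 0.13 in SOD1*G93A mice. With SOD1*G93A in Gprin3 IPs, 3 of 18 tested were higher, namely the calmodulin genes Calm2 (0.47 ± 0.10) and Calm3 (0.50 ± 0.12) and the calcium sensor gene Cabp1 (0.81 ± 0.19). In the same IPs 4 were lower: Bsn (-2.35 ± 0.14), Rimbp2 (-0.82 ± 0.20), Erc2 (-0.68 ± 0.13), both active zone genes, and Akap5 (-0.47 ± 0.12), an anchor of kinases at L-type channels. The median of that list was -0.11. Of all 13726 genes tested, 401 were higher and 717 lower. In Colgalt2 IPs edgeR called none of 20, with none at an unadjusted p under 0.05, and DESeq2 none of 16 with an adjusted p. Over all genes edgeR called 0 of 14785 there.

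Across the 10 group means, the genes most like each member in pattern were found by Pearson's r over 10254 genes of at least 5 CPM, as a description over 10 points that share libraries and depth. For Cacna1c, called in the most comparisons (9 of 14), these included Mdc1 (0.985) and Spen (0.979). For Cacna1e and Cacna1d, called in 8 each, they were Eif4g3 (0.991), Plxna4 (0.988) and Scn8a (0.986), and Zfp462 (0.967), Bcor (0.964) and Arid1a (0.963). Among the members themselves, Cacna1c and Cacna1d had r of 0.941 and Cacna1a and Cacna1e 0.952, while Cacna1h and Cacna1d had 0.271.

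The authors' deposited tables, made with DESeq2 and other filters, hold 6 of these comparisons. In the authors' deposited table for SOD1*G93A in Gprin3 IPs, 8 members were lower at an adjusted p under 0.05: the 6 above with Cacna1g (log2 -0.80, adjusted p = 0.0366) and Cacna1i (-1.04, adjusted p = 0.0143). In the authors' deposited table for baseline Colgalt2 IPs over input, 7 members were higher, and in that between the lines at baseline 7 were lower. Their table for Gprin3 baseline IPs over input has Cacna1h higher and Cacna1c and Cacna1d lower. The authors' deposited tables for Colgalt2 IPs and M1 input list no member as changed with SOD1*G93A. How many of all genes pass in the authors' tables was not counted here.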

How the data were processed

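RNA of 32 libraries in 10 groups (TRAP IP or whole-tissue input) was sequenced from 15 ng of RNA each, per the labels' protocols. The deposited gene tables hold raw counts per gene, counted with featureCounts of Subread on mm10 per the submitters' processing notes, whose versions are not given in the sources used here. The authors' deposited comparison tables hold log2 fold changes and adjusted p-values from DESeq2 1.26.0, per the same notes. A further 36 per-library columns of transformed values were not used, and 9 features without a symbol, at most 0.0201% of counts in any library, were left out.

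CPM divide each count by its library total, with no further scaling. Tests ran in R 4.3.3 with edgeR 4.0.16 on limma 3.58.1, using its default low-count filter, TMM scaling and a robust quasi-likelihood F test, fitted on all genes with Benjamini-Hochberg adjustment and a threshold of 0.05. Standard errors are the log2 change over the root of F, and intervals are 95%. Each fit used only the groups it compares. Levels per kb use the longest GENCODE transcript of a gene or, where stated, all its annotated exons joined. In the fit without the length trend, each library's smooth curve of deviation on transcript length (loess) entered as an offset. Alternatives were other size factors, no filter, DESeq2 1.42.0, the replicate number as a block, a joint fit of a set, the length offset and leaving out each library. For SOD1*G93A in Colgalt2 IPs, whose libraries were not all counted from the same sequenced read, that read was also entered as a covariate. This fit called 0 members, with a median of -0.23. The fits were tested on simulated data: for SOD1*G93A in Gprin3 IPs (13726 genes), 89% of genes changed 4-fold and 48% of those changed 2-fold were recovered. Recovery of 2-fold changes was 10% for Colgalt2 baseline IPs over input (14240 genes), 11% between the lines at baseline (13604), 9% for the difference in IP over input between lines (15045) and 15% for the difference in SOD1*G93A effects (15476).

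Replicates of a group differed by more than sampling noise (chi-square per degree of freedom of at least 7.5), so each library counts once. All 10 members are reported in each comparison, by value or within a range, genes of the 2 further lists only where called, and genes of like pattern by the highest Pearson correlation of group means, of which 1 is not reported here. The members and lists were chosen with earlier results of these data known, and the comparison of the wild-type Gprin3 sets was added after seeing the data.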

Additional observations from a re-analysis of the deposited data

Results flagged for a closer look

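Among 30 groups of 4 to 6 values checked for a library far from the others, where chance alone gives about 1 in 20, 2 stood out, both in SOD1*G93A M1 input. The lowest library held 16.6 CPM of Cacna1d, with the next at 21.2 CPM. For Cacna2d1 the lowest held 247.0 CPM and the next 279.0 CPM.

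Other results were flagged because an effect differed between 2 groups in a test of the difference itself. The IP-over-input difference was lower in the Gprin3 than in the Colgalt2 line at baseline for Cacna1a (-1.048), Cacna1b (-1.323), Cacna1c (-1.912), Cacna1d (-1.32), Cacna1e (-1.596) and Cacna1g (-1.525), on the log2 scale. The SOD1*G93A effect was lower in Gprin3 IPs than in M1 input for Cacna1a (-0.7587), Cacna1b (-0.7449), Cacna1c (-1.304), Cacna1d (-1.176), Cacna1e (-0.805), Cacna1i (-0.9902) and Cacna2d1 (-1.039). The IP-over-input difference of wild-type Gprin3 mice was lower at baseline than in the second set for Cacna1a (-0.8421), Cacna1b (-0.7442), Cacna1c (-1.572), Cacna1d (-1.421), Cacna1e (-1.222) and Cacna1i (-1.021).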

How the results depend on the processing

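Of 1970 recomputed values of single members, 1770 stayed on their side of the threshold (75 of them uncalled with a change of sign), 127 lost the call, 73 gained one and none changed direction while called. Cacna1h stayed higher in Gprin3 IPs than in inputs under every alternative run in all 3 sets. With the length trend taken out, the number of members called was 0 for Colgalt2 IPs over input, between the lines at baseline, for SOD1*G93A in Gprin3 IPs and for the line difference in IP over input. It was then 4 between the lines in SOD1*G93A mice, 2 for Gprin3 IP minus M1 input and 2 between the wild-type Gprin3 sets. For Colgalt2 IPs over input it was 6 without a low-count filter, with DESeq2, with the replicate block and in a joint fit. Over all genes the calls rose too, from 378 to 1742, 1877, 1506 and 2309 in the same order. The joint fit gave 7 between the lines at baseline, 1 between the lines in WT mice and 3 for the difference of SOD1*G93A effects between lines, and was not run for the added comparison. Over all genes it called 3265 between the lines at baseline, in place of 907, and 3999 between the lines in WT mice, in place of 1926. Its calls over all genes for the difference of SOD1*G93A effects between lines are not given here. The cause was not tested, except that the length fit by construction removes what goes with length. In fits with 1 library left out, calls over all genes moved too wherever they are given above. For the other comparisons they are not given, so the ranges below are not a result about the members alone.

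Leaving out 1 library at a time gave 1 to 5 members for Gprin3 baseline IPs over input, 0 to 9 for Colgalt2, 0 to 7 between the lines at baseline, 7 to 9 for WT and 6 to 8 for SOD1*G93A Gprin3 IPs over input, and 5 to 7 between the lines in SOD1*G93A mice. It gave 0 to 7 for SOD1*G93A in Gprin3 IPs, 2 to 7 for the line difference in IP over input, 4 to 7 for Gprin3 IP minus M1 input, 5 to 7 between the wild-type Gprin3 sets and 0 throughout for the other comparisons.

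Same-numbered libraries deviated together little (correlations from -0.176 to 0.191), so the numbers were not taken as pairs. With the replicate block, 3 members were called for SOD1*G93A Gprin3 IPs over input in place of 7. Over all 14460 genes tested the calls fell too, from 7202 to 4142. For the line difference in IP over input 4 members were called in place of 6, and the calls over all genes are not given here. The smallest member count in any library was 103.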
